A study of Homo sapiens with 20 samples.

Results

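HNRNPA1 (ENSG00000135486) is the gene of hnRNPA1, an abundant nuclear RNA-binding protein that represses splice sites and helps to package nascent RNA. It was found in the deposited peak lists by its gene ID and is 1 of 19362 genes with a called peak. The series measured RNA contacts by iCLIP, in which ultraviolet light links a protein to RNA, the protein is immunoprecipitated and the linked RNA is sequenced. Libraries were made for hnRNPA1 (2 control and 2 overexpression), for U2AF2 (3 and 3) and for SRSF1 (3 and 3), all from nuclear extracts of TREX FLP-In 293T cells (also labelled HEK293T TREX-FLP), a human embryonic kidney line with a site for an inducible transgene. Overexpression cells carried inducible T7-tagged hnRNPA1. Per the labels, both kinds of cell were under tetracycline for 24 h and under blasticidin selection for 3 days before use. Control cells were also selected with zeocin and the inducible lines with hygromycin, so overexpression and the selection agent cannot be told apart. The labels do not say whether a line was 1 clone or whether replicates were separate cultures, so p-values measure the spread between these libraries, which may be technical.

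Proteins of the hnRNP A/B family bind RNA through a pair of RNA recognition motifs and a glycine-rich tail. hnRNPA1 is known to bind its own pre-mRNA beside an alternative exon, and RNA-binding proteins of this kind commonly limit their own amount through splicing of their own transcript. U2AF2 recognises pyrimidine-rich RNA upstream of a 3' splice site and recruits the U2 snRNP. SRSF1 is a serine and arginine-rich protein that binds exonic enhancers.

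HNRNPA1 carried 159 called peaks with 6397 reads over the 16 libraries, between 54674572 and 54680513 on the plus strand of chromosome 12 (hg19), a span of 5942 nt. Distances below are counted from the first of these bases. No exon or intron was assigned, because no hg19 annotation was used here. The GENCODE 29 annotation lists 14 transcripts of the gene: 9 protein-coding, 3 with a retained intron, 1 subject to nonsense-mediated decay and 1 processed transcript. A read from the introduced copy and a read from the endogenous gene carry the same gene ID in these files, so both sources cannot be told apart. The deposited RNA-seq table covers 251 skipped-exon events, of which 0 overlapped HNRNPA1, and no transcript level was analysed here. More contact per transcript and more transcript cannot be told apart either.

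Near-identical copies limit what a read on HNRNPA1 can show. The coding sequence used was that of transcript HNRNPA1-203 (963 nt). Of the protein-coding transcripts, it shared the most stretches of 30 nt with HNRNPA1L2 and was chosen for that. The shares below hold for this transcript alone. Of its 934 coding stretches of 30 nt, 904 (96.8%) occur exactly in a transcript of another gene. Such stretches were shared with 79 genes, 73 of them named as HNRNPA1 pseudogenes or HNRNPA1-like genes. The pseudogene HNRNPA1P10 shared the most (785 stretches, 84.0%) and had no called peak in any library. HNRNPA1L2 on chromosome 13, a retrocopy with an open reading frame, shared 563 (60.3%) and had peaks in every library. How the aligner treated reads with several matches is not given in the sources used here. Coding positions 421 to 510, counted from the A of the start codon, show why: HNRNPA1L2 is identical there, and HNRNPA1P33 on chromosome 10 differs at 5 bases, in capitals (GENCODE 29 transcripts, GRCh38).
HNRNPA1: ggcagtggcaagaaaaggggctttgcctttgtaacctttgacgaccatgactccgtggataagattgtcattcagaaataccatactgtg
HNRNPA1L2: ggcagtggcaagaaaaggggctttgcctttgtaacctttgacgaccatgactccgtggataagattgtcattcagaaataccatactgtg
HNRNPA1P33: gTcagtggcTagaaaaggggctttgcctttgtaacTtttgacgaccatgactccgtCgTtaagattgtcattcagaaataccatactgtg

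Of 30 windows of 90 nt along the coding sequence, HNRNPA1L2 matched 5 without a difference and differed at no more than 3 bases in any other. Positions 511 to 600 hold 3 differences, in capitals.
HNRNPA1: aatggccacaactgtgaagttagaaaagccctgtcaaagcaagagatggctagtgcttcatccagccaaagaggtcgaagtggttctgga
HNRNPA1L2: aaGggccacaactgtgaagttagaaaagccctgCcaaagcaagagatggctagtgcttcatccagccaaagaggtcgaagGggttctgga

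Depth differed between the conditions in opposite directions for the 3 proteins. Reads in peaks numbered 2508821 to 2973275 in the hnRNPA1 control libraries and 549365 to 575471 with overexpression. They ran from 702563 to 1158060 in U2AF2 control and from 2317615 to 3657197 in U2AF2 overexpression libraries, and from 125082 to 173766 and from 175293 to 329448 for SRSF1. A called peak held at least 6 reads in every library except U2AF2 overexpression replicate 3, which listed peaks from 3 reads and used another gene annotation. Of the markers of other cell types PTPRC, CD3E, HBB, ALB, GFAP, INS and MYH6, none had a peak in any library. Among 5 genes often seen in HEK293 RNA, VIM had peaks in 14 libraries and KRT8 in 1, and NEFM, NEFL and KRT18 had none.

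U2AF2 contacts on HNRNPA1 fell with overexpression of hnRNPA1, whereas the gene's share of the hnRNPA1 and SRSF1 libraries stayed within the spread between replicates. HNRNPA1 took 0.0643%, 0.0594% and 0.0597% of the reads in peaks in the 3 U2AF2 control libraries. With overexpression it took 0.00292%, 0.00518% and 0.00640%. Every U2AF2 overexpression library was below every U2AF2 control library. The means were 0.0611% ± 0.00278 (SD, n = 3) and 0.00483% ± 0.00176 (SD, n = 3), a ratio of 0.0791 (exact two-sided permutation p = 0.1, the smallest that 3 against 3 allow). Ranked by reads among the genes of a library, HNRNPA1 stood at places 194, 221 and 224 in the controls and at 7045, 5273 and 4810 with overexpression.

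**Figure D1:**
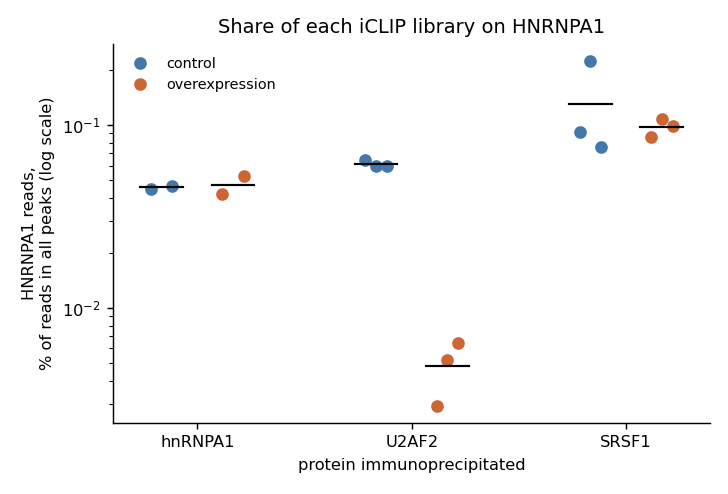
HNRNPA1 reads as a percentage of all reads in peaks (log scale) in each of the 16 iCLIP libraries, by protein immunoprecipitated and condition; points are libraries and black lines are group means. The 3 U2AF2 overexpression libraries lie between 0.00292% and 0.00640%, below the 3 controls at 0.0594% to 0.0643%, and the groups overlap for hnRNPA1 and SRSF1.

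In read numbers, the U2AF2 control libraries had 452, 465 and 691 reads in 9, 8 and 12 peaks on HNRNPA1. The overexpression libraries had 79, 120 and 234 reads in 6, 4 and 19 peaks, although they were deeper. After division by median-of-ratios size factors the levels were 1237 ± 66.9 normalised reads in control and 55.9 ± 20.1 with overexpression (SD, n = 3 each). The log2 change of -4.51 ± 0.29 (SE; limma on log2(normalised reads + 1), Benjamini-Hochberg adjusted p = 0.000205) passed the threshold of 0.05. In this comparison 16% of the 13007 genes tested were called lower and 27.5% higher, and the median change over all genes was 0.76. HNRNPA1 lay far down that distribution: 227 genes (1.75%) had a lower value. With total reads in peaks as the scale the median change over all genes rose to 1.49 and HNRNPA1 changed by -3.71, so its distance from the median was -5.20 against -5.27.

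The fall was smaller in peak number than in reads. Counted in peaks, the change was -1.80 (adjusted p = 0.00582). In U2AF2 overexpression replicate 3, a second gene ID on the same strand (ENSG00000258344, without a symbol) was listed over the same bases, with 41 peaks and 482 reads inside the HNRNPA1 span. Of these, 19 touched the 19 HNRNPA1 peaks of that library, which held 234 reads. With those reads counted for HNRNPA1, the change was -4.17 (adjusted p = 0.00142), and without replicate 3 it was -4.72 (adjusted p = 0.000216).

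hnRNPA1 itself occupied its own transcript in every library, at a similar share in both conditions. Control libraries had 1336 and 1161 reads in 20 and 18 peaks, or 0.0449% and 0.0463% of the reads in peaks. Overexpression libraries had 229 and 302 reads in 8 and 10 peaks, or 0.0417% and 0.0525%. The groups overlap, with the overexpression libraries on either side of both controls (exact two-sided permutation p = 1, where 2 against 2 cannot fall below 1 in 3). Normalised reads were 523 ± 1.5 in control and 607 ± 93.5 with overexpression (SD, n = 2 each), a log2 change of 0.20 ± 0.14 that did not pass (limma, adjusted p = 0.355). Here 4.31% of 12461 genes were called higher and 34.1% lower, and the median over all genes was -1.62. That median includes genes without a peak in the shallower overexpression libraries, which count as 0. A peak's minimum was worth 2.35 to 2.71 normalised reads in control and 13.4 to 14.2 with overexpression. With a peak required in every library, 1023 genes were called in place of 4791. The part of depth in the median was not tested. The sign of the HNRNPA1 value turned with quantile normalization (-0.09) and with reads scaled to the smallest library (-0.51), neither of them called.

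SRSF1 gave no call on HNRNPA1. Control libraries had 159, 279 and 115 reads, or 0.0915%, 0.223% and 0.0761% of the reads in peaks. Overexpression libraries had 150, 357 and 268 reads, or 0.0856%, 0.108% and 0.0988%. The groups overlap, and control replicate 2 lies above all others. Normalised reads were 246 ± 190 in control and 198 ± 32.2 with overexpression (SD, n = 3 each; log2 change -0.06 ± 0.49, limma adjusted p = 0.962). In that comparison 6.38% of 5598 genes were called higher and 1.95% lower. Without control replicate 2 the change was 0.49 (adjusted p = 0.304), and without overexpression replicate 1 it was 0.13 (adjusted p = 0.899), so no direction can be given.

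The difference between proteins was tested directly as the interaction of protein and condition. On HNRNPA1 the U2AF2 response lay below the hnRNPA1 response by a log2 difference of -4.72 ± 0.41 (SE; limma, adjusted p = 5.08e-05), in a comparison where 10.9% of 12051 genes were called below. It lay below the SRSF1 response by -4.45 ± 0.64 (adjusted p = 0.00114), where 10.4% of 8852 genes were called below. Counted in peaks instead of reads, the latter was -1.80 (adjusted p = 0.0581) and did not pass. The hnRNPA1 and SRSF1 responses differed by 0.27 ± 0.68 (adjusted p = 0.862; 7.18% of 7163 genes called in either direction).

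In control cells hnRNPA1 and U2AF2 lay on the same stretch of HNRNPA1. The read-weighted mean position was 3775 ± 5.65 nt from the first base for hnRNPA1 (SD, n = 2) and 3955 ± 46.7 nt for U2AF2 (SD, n = 3). Of 10 equal segments of the span, segment 7, from 54678137 to 54678730, held 66.5% ± 3.83 of the hnRNPA1 reads and 75.0% ± 2.24 of the U2AF2 reads. Of the U2AF2 control reads on the gene, 93.8%, 97.6% and 92.8% were in peaks that touched an hnRNPA1 control peak by at least 1 nt. The SRSF1 control libraries gave 59.1%, 56.6% and 77.4%, all below the 3 U2AF2 controls. SRSF1 lay further towards the start, at 2884 ± 95.8 nt (SD, n = 3).

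**Figure D2:**
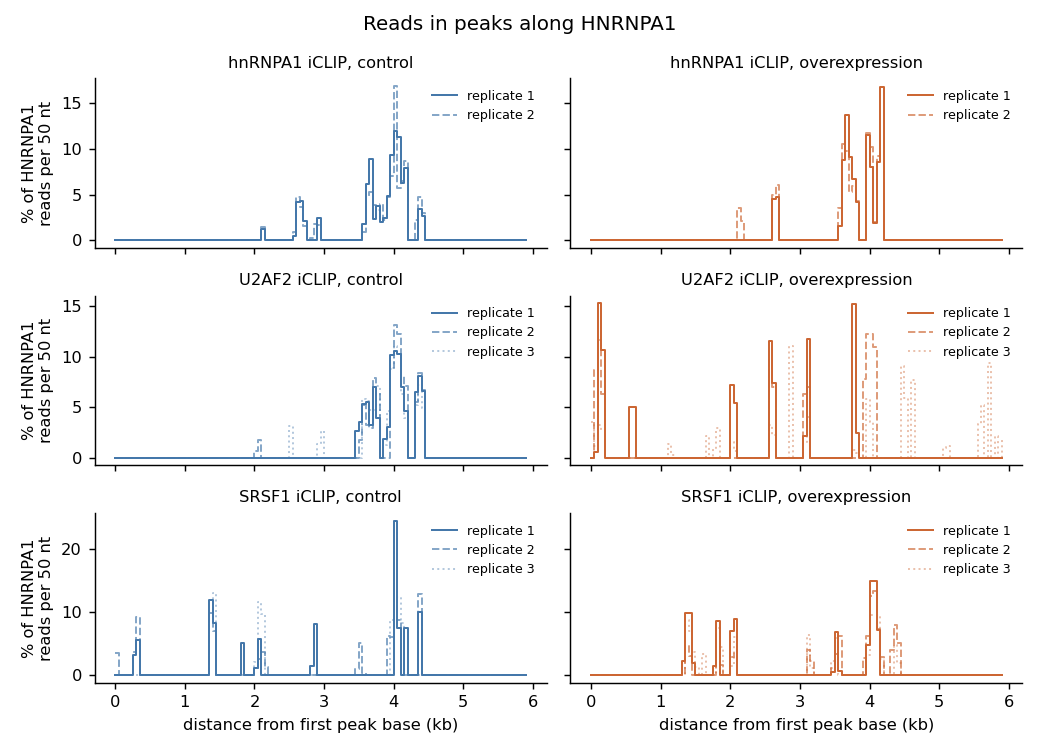
Percentage of each library's HNRNPA1 reads per 50 nt, against the distance in kb from the first peak base, with the reads of a peak spread evenly over it; rows are the proteins, columns the conditions, and lines the replicates. The hnRNPA1 and U2AF2 control profiles share a block between 3.5 and 4.5 kb. The U2AF2 overexpression profiles also have reads near the start of the gene, and only replicate 3 has reads past 4.5 kb.

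With overexpression the U2AF2 reads that remained, in 6, 4 and 19 peaks, lay less in segment 7. Only replicate 3 had called peaks in segments 8 to 10. That library listed peaks from 3 reads under another annotation, and its 482 reads listed under ENSG00000258344 are not counted here. The mean position moved to 2730 ± 840 nt (SD, n = 3), with the libraries at 1955, 2614 and 3622 nt against 3987, 3976 and 3901 nt in control. Both groups were fully apart (exact two-sided permutation p = 0.1, the smallest possible). Segment 7 held 17.7%, 43.3% and 10.7% of the gene's reads in the overexpression libraries, a mean of 23.9% ± 17.2. Segment 1 had no called peak in any control, which counts as 0, and held 21.3% ± 9.20 with overexpression. Its main site, at the overexpression level, equals 3.41 to 5.81 reads in a control library, under the minimum of 6. Reads at that level in control cells were therefore not detectable. Segment 5 went from 2.41% ± 4.18 to 17.4% ± 1.34. For segments 1, 5 and 7 the exact permutation p was 0.1, and 0.33 after adjustment over the 10 segments. Peaks touching hnRNPA1 control peaks held 36.7%, 60% and 27.4% of the U2AF2 reads on the gene. The hnRNPA1 reads had a mean position of 3722 ± 88.9 nt with overexpression (SD, n = 2). The libraries were at 3784.5 and 3659 nt, on either side of the controls at 3771 and 3779 nt. The exact permutation p was 1, where 2 against 2 cannot fall below 1 in 3, so a shift could not be told. In both overexpression libraries 100% of the hnRNPA1 reads were in peaks touching hnRNPA1 control peaks. SRSF1 was at 3093 ± 368 nt (exact permutation p = 0.6).

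At single sites, 4 stretches were bound by U2AF2 in all 3 control libraries. The largest, 54678448 to 54678765, had 215, 230 and 320 reads in control and 0, 52 and 22 with overexpression, or 591 ± 42.0 and 11.1 ± 13.7 normalised reads (SD). The stretch from 54678250 to 54678382 had 64, 80 and 105 reads and then 14, 0 and 3. The stretches 54678046 to 54678242 (77, 48 and 96 reads in control) and 54678882 to 54679012 (96, 96 and 120) had no HNRNPA1 peak in any overexpression library. At the control level the shallowest overexpression library would hold 336 and 483 reads there, against a minimum of 6 for a peak. Reads listed under ENSG00000258344 in overexpression replicate 3 are not counted at any site here or in the next paragraph.

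U2AF2 also had 3 sites listed in every overexpression library and in no control: 54674635 to 54674756 (21, 32 and 14 reads), 54677140 to 54677194 (15, 20 and 13) and 54677641 to 54677718 (11, 16 and 13). At the first, the overexpression mean of 9.87 ± 5.99 normalised reads equals 3.41 to 5.81 reads in a control library, under the minimum of 6. The other sites equal at most 4.05 and 3.32 reads. Whether U2AF2 bound these sites in control cells was therefore not detectable at this depth.

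In a fit over all 500-nt bins of the genome, 3 bins of HNRNPA1 were called for U2AF2. The bin 54678001 to 54678500 fell from 163, 128 and 240 reads to 14, 0 and 30 (log2 change -6.60, limma adjusted p = 0.00128). Its neighbour, 54678501 to 54679000, fell from 289, 326 and 401 reads to 0, 52 and 52 (-6.66, adjusted p = 0.00519). In all, 10.2% of 56685 bins were called lower. The bin 54674501 to 54675000 had no called peak in control and 21, 32 and 54 reads with overexpression (3.86, limma adjusted p = 7.43e-05). It entered the test only through the overexpression libraries, so this call is not read as a rise. Of all bins, 62% were called higher in these deeper libraries. The minimum for a peak in the controls is worth 10.2 to 17.3 normalised reads, against a level of 14.0 ± 4.38 here. Where peaks listed under several genes overlapped, bins kept the one with most reads, so replicate 3 counts the ENSG00000258344 listing.

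**Figure D3:**
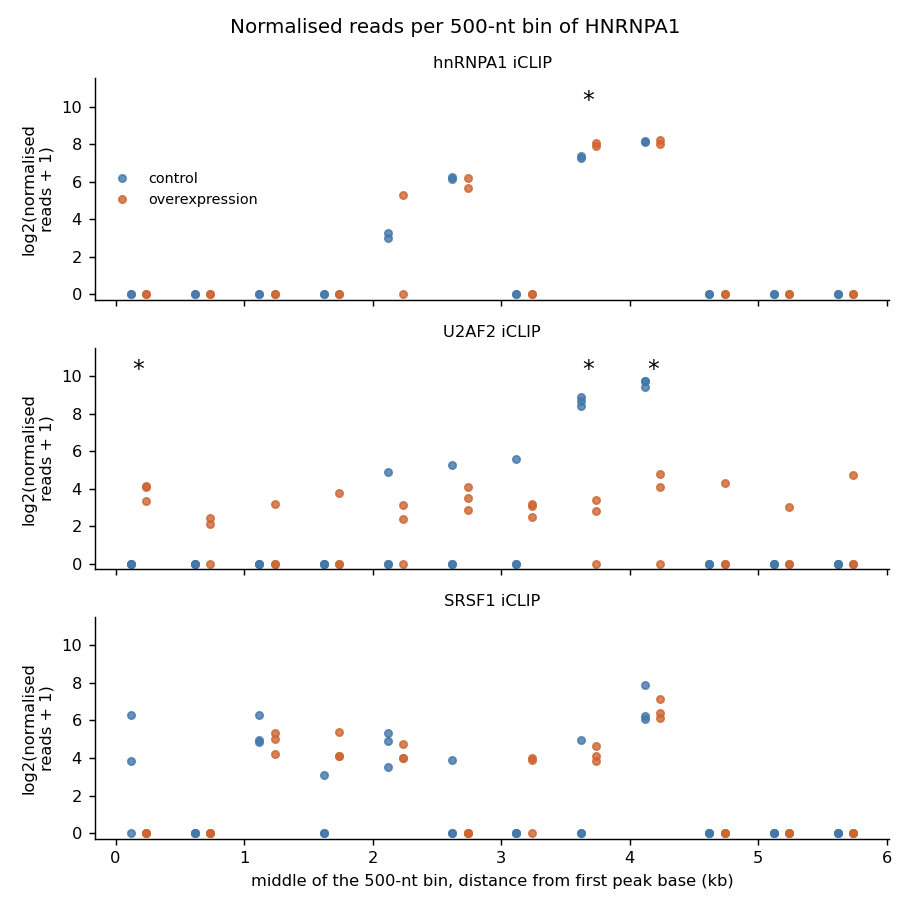
Log2(normalised reads + 1) in the 500-nt bins of HNRNPA1 by distance in kb from the first peak base, 1 panel per protein; points are libraries, shifted sideways by condition, and stars mark bins with an adjusted p below 0.05. For U2AF2 the bins at 3.7 and 4.2 kb fall. The starred U2AF2 bin at 0.2 kb has no control peak and entered the test only through the overexpression libraries. For hnRNPA1 only the bin at 3.7 kb is starred.

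For hnRNPA1, 1 bin was called, 54678001 to 54678500, one of the bins that fell for U2AF2. It had 425 and 336 reads in control and 101 and 119 with overexpression, in libraries with fewer reads in peaks. In normalised reads it rose from 159 ± 10.2 to 252 ± 18.8 (log2 change 0.66, limma adjusted p = 0.0144; 7.25% of 66679 bins were called higher and 41.2% lower). Without control replicate 1 the change was 0.70 (adjusted p = 0.483) and without control replicate 2 it was 0.57 (adjusted p = 0.604). Those refits leave 1 control library, which is assumed to vary like the overexpression pair, so the fold stayed similar while the call was lost. The adjacent bin from 54678501 stayed level, at 283 ± 6.35 and 275 ± 30.9 normalised reads (-0.05, adjusted p = 0.819). Near its end, the site 54678934 to 54679003 had 82 and 77 reads in control and no peak with overexpression, where the control level equals 14.2 reads in the shallower library, above the minimum.

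SRSF1 had 3 stretches bound in all 6 of its libraries. The site 54675911 to 54676031 had 32, 47 and 26 reads in control and 36, 27 and 42 with overexpression, and no hnRNPA1 peak or U2AF2 control peak touched it. The site 54678475 to 54678765, inside the main hnRNPA1 and U2AF2 block, had 63, 108 and 62 reads and then 63, 161 and 92. The site 54676584 to 54676728 had 11, 24 and 27 reads and then 24, 23 and 20. Near the start of the gene, the site 54674864 to 54674889 had 14, 36 and 0 SRSF1 reads in control and no peak with overexpression, and its bin was in too few libraries to be tested. Of the SRSF1 bins of HNRNPA1, 0 passed the adjusted threshold, where 9.57% of 7273 bins were called higher and 5.69% lower. The nearest was 54676001 to 54676500, with 8, 0 and 0 reads in control and 15, 25 and 54 with overexpression (3.50, limma adjusted p = 0.0896). Without control replicate 1 it passed (4.52, adjusted p = 0.0282). The bin from 54678001, with 0, 18 and 0 reads in control (2.56, limma adjusted p = 0.387), passed without control replicate 2 (4.33, adjusted p = 0.0442). In each refit the library left out held the only control reads of the bin. The bin then entered the test only through overexpression, so neither pass is read as a change.

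The A/B paralogs of HNRNPA1 also fell in U2AF2 iCLIP, each by the same limma fit, where 16% of all genes were called lower and 27.5% higher. HNRNPA1L2 went from 257 ± 27.6 to 40.2 ± 11.9 normalised reads (log2 change -2.68, adjusted p = 0.000419). HNRNPA2B1, the closest relative in function and often bound with hnRNPA1, went from 10118 ± 995 to 775 ± 215 (-3.74, adjusted p = 0.000205). HNRNPA3, a paralog of hnRNPA1 with the same domains, changed by -2.98, HNRNPAB by -2.40 and HNRNPA0, encoded by an intronless gene, by -4.70. In hnRNPA1 iCLIP only HNRNPA2B1 of these 5 passed, with a rise from 1484 ± 27.7 to 3473 ± 8.12 normalised reads (1.23 ± 0.05, adjusted p = 0.00237). There 4.31% of all genes were called higher and 34.1% lower. In SRSF1 iCLIP none of the 4 measured passed, where 6.38% of all genes were called higher and 1.95% lower.

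**Figure D4:**
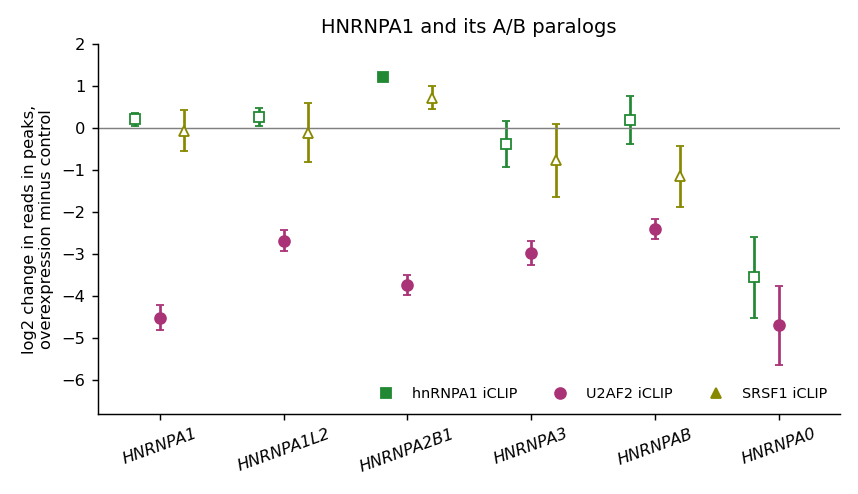
Log2 change of normalised reads in peaks, overexpression minus control, for HNRNPA1 and its A/B paralogs in each protein's iCLIP; bars are SE from limma, and filled symbols have an adjusted p below 0.05. All U2AF2 symbols are filled and lie between -4.70 and -2.40, and the only other filled symbol is HNRNPA2B1 in hnRNPA1 iCLIP.

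The share of HNRNPA1L2 in the summed reads of both genes was higher in the U2AF2 overexpression libraries than in their controls, but most of its overexpression reads lay at sites that no control listed. This share of the sum of HNRNPA1 and HNRNPA1L2 reads was 14.7%, 18.4% and 18.5% in control and 46.3%, 46.4% and 34.6% with overexpression, with no overlap. In hnRNPA1 iCLIP it was 21.4% and 18.6%, then 20.5% and 20.9%. In SRSF1 iCLIP the shares were 28.1%, 32.4% and 17.9%, then 25.4%, 23.4% and 26.4%. Of the 296 U2AF2 overexpression reads of HNRNPA1L2, 162 (54.7%) were at 12 sites without a control peak, and the largest control site, on chromosome 13 from 53217588 to 53217890, fell from 218 to 70 reads in all. The largest of the other sites, 53202524 to 53202589, held 45 reads over 3 overexpression libraries. The controls were shallower and list no read below a peak's minimum, so the higher share cannot be read as a gain. HNRNPA1P33 had a peak in 3 libraries, and HNRNPA1P5 in U2AF2 overexpression replicate 3 alone, with at most 8 reads each.

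The genes of the other immunoprecipitated proteins moved the same way in U2AF2 iCLIP. SRSF1 went from 3552 ± 308 to 244 ± 137 normalised reads (-4.05, adjusted p = 0.00110) and U2AF2 from 549 ± 58.3 to 203 ± 32.6 (-1.44, adjusted p = 0.000831). The nearest gene before HNRNPA1, CBX5 on the opposite strand, codes for the heterochromatin protein HP1 alpha and ends its peaks 1219 nt away. CBX5 rose, from 162 ± 18.6 to 368 ± 54.0 (1.17, adjusted p = 0.00202). The nearest gene after it, COPZ1, a coat protein gene 38546 nt away, changed by -1.01 without passing (adjusted p = 0.221).

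The 5 genes whose pattern was most like that of HNRNPA1 were RPS4X, HNRNPU, RPL4, VCAN and DDX17, by Pearson r of log2(normalised reads + 1) over the 16 libraries, centred within each protein, out of 1346 other genes that all 16 libraries list. Their r values were 0.98, 0.97, 0.97, 0.97 and 0.96, as a description: the libraries share their depth and scale, and the U2AF2 change weighs most. RPS4X, a ribosomal protein gene, had a U2AF2 log2 change of -4.49, an hnRNPA1 change of 0.32 and an SRSF1 change of -0.25. HNRNPU, which codes for a scaffold-associated hnRNP, had -4.26, 0.36 and -0.10. The U2AF2 changes of RPL4 (a ribosomal protein), VCAN (versican, a matrix proteoglycan) and DDX17 (an RNA helicase) were -4.10, -3.67 and -3.38.

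Gene lists fixed for this gene place it among related genes; HNRNPA1 is left out of their counts, and the lists share members. Of the 25 other hnRNP family genes, 24 were measured in U2AF2 iCLIP, of which 20 fell and 0 rose. Over all genes 16% were called lower and 27.5% higher. The median log2 change of the family was -2.53, against 0.76 over all genes. HNRNPH1, a G-run-binding splicing factor, fell from 15796 ± 1917 to 556 ± 198 normalised reads (-4.87, limma adjusted p = 0.000205). Only HNRNPH1 and HNRNPA0 of these had a lower value than HNRNPA1. In hnRNPA1 iCLIP 6 of 25 rose and 3 fell (4.31% and 34.1% over all genes), with a median of 0.04 against -1.62 over all genes, and HNRNPUL2 rose most, by 1.25 (adjusted p = 0.0244). The median over all genes includes genes without a peak in the shallower overexpression libraries, so the distance from it is not read as a result. PTBP1 and HNRNPH2 were called lower there from 7.09 ± 4.91 and 5.66 ± 4.17 normalised reads, levels below the 13.4 to 14.2 that a peak needs in the overexpression libraries. In SRSF1 iCLIP 2 of 20 measured rose, HNRNPH1 (0.88, adjusted p = 0.0256) and HNRNPUL2 (from no peak to 10.8 ± 4.79), and 0 fell, against 6.38% and 1.95% over all genes. HNRNPUL2 had a peak in 3 libraries, all with overexpression, so it entered the test only through them. Its level there is near the 5.62 to 9.98 normalised reads that a peak needs in the controls, so its rise is not read as a change.

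A second list holds 29 other genes taken here to act on their own mRNA. Most are genes of RNA-binding proteins and some are genes of kinases. All 29 were measured in U2AF2 iCLIP, of which 24 fell and 0 rose (16% and 27.5% over all genes), with a median of -3.47 against 0.76. Beside HNRNPH1, the lowest value belonged to SRSF2, an SR protein gene, which fell from 2993 ± 340 to 117 ± 52.7 normalised reads (-4.75, adjusted p = 0.000205). In hnRNPA1 iCLIP 3 rose and 3 fell (4.31% and 34.1% over all genes), with a median of 0.09 against -1.62. The latter again includes genes without a peak in the shallower overexpression libraries. CLK1, a kinase of SR proteins, rose from 75.1 ± 5.58 to 247 ± 71.8 (1.67, adjusted p = 0.0236), and U2AF1, the partner subunit of U2AF2, fell by 0.79 on the log2 scale (adjusted p = 0.0498). In SRSF1 iCLIP 1 of 28 rose and 1 fell, near the 6.38% and 1.95% over all genes: HNRNPH1 as above, and U2AF1 from 182 ± 79.0 to 32.3 ± 6.40 (-2.38, adjusted p = 0.0256).

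Of 7 genes for transport and modification of hnRNPA1, 4 fell and 0 rose in U2AF2 iCLIP (16% and 27.5% over all genes), with a median of -1.47 against 0.76. MKNK2, a kinase that phosphorylates hnRNPA1, changed by -2.95 (adjusted p = 0.0133) and PRMT1, an arginine methyltransferase, by -2.52 (adjusted p = 0.0253). In SRSF1 iCLIP 2 of 5 measured fell, where 1.95% of all genes did: MKNK1 (39.6 ± 19.9 normalised reads to no peak) and the SR protein kinase gene SRPK1 (150 ± 63.5 to 22.7 ± 7.40; -2.65, adjusted p = 0.0256). MKNK1 had a peak in 3 libraries, all of them controls, so it entered the test only through the group where it was high. The count is therefore not read as a result about the list. In hnRNPA1 iCLIP 2 of 5 measured, MKNK1 and PRMT5, were called lower (34.1% over all genes), from 9.87 ± 3.74 and 3.88 ± 2.17, again below the level a peak needs with overexpression.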

How the data were processed

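HNRNPA1 was followed in 16 iCLIP libraries. Per the file headers, the authors mapped reads to hg19 with TopHat and called peaks per library with CLIPper; the submitters' processing notes name TopHat and Bowtie2, and versions are not given in the sources used here. Each deposited peak has an interval, a strand, a gene ID, a number of reads and a p-value as the authors' caller gave it. Reads in peaks were summed per gene and library and divided by median-of-ratios size factors per protein. Log2(value + 1) was fitted with limma 3.58.1 in R 4.3.3 over all genes listed in 50% or more of a protein's libraries, or over all 500-nt bins of the genome, with Benjamini-Hochberg adjustment and a threshold of 0.05. Overlapping peaks listed under several genes counted once in the bins (4.59% of peaks left out). Positions and shares were compared with exact permutation tests. The gene fits were tested on simulated counts of genes with a peak in every library and without a peak minimum. That test does not cover genes or bins with missing peaks.

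Of the gene IDs, 17814 of 19362 (92.0%) were in the gene name table. Because only called peaks were deposited, a gene or bin without a peak counts as 0, and its true read number is unknown. Named genes are HNRNPA1, its A/B paralogs and pseudogenes, SRSF1, U2AF2, the nearest genes with peaks, the 5 genes of most like pattern, and the 2 highest and 2 lowest changes that passed in each list. The gene, the lists and the tests were chosen with earlier results of these data known. Alternatives covered scaling, pseudocount, filters, peak thresholds, bin size, a replicate block and each library left out. Tables and exact tests used Python 3.11.15 with scipy 1.17.1. One marker of another cell type is not reported here.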

Additional observations from a re-analysis of the deposited data

Results flagged for a closer look

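The response on HNRNPA1 differed between proteins by the interaction test. The U2AF2 change lay below the SRSF1 change by a log2 difference of -4.45 (limma adjusted p = 0.00114) and below the hnRNPA1 change by -4.72 (adjusted p = 5.08e-05). U2AF2 normalised reads were lower in 3 of 3 overexpression libraries than in every control, whereas the groups of SRSF1 overlapped. The U2AF2 overexpression libraries were deeper than their controls and the hnRNPA1 overexpression libraries shallower, and the part of depth in the differences was not tested. No group had more than 3 libraries, so single libraries were not tested for standing apart.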

How the results depend on the processing

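The fall of U2AF2 reads on HNRNPA1 passed under every alternative run, from -6.75 with reads scaled to the smallest library to -1.80 with the number of peaks (adjusted p up to 0.00582), and from -4.72 to -4.16 with 1 library left out. The difference from the SRSF1 response was -1.80 with the number of peaks (adjusted p = 0.0581) and -5.00 to -4.09 with 1 library left out. The difference from the hnRNPA1 response was -2.12 with the number of peaks (adjusted p = 0.00729), -3.75 with total reads and -4.95 to -4.36 with 1 library left out.

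Values that were not called turned direction. The hnRNPA1 change was -0.0897 with quantile normalization, -0.51 with scaled reads and 0.07 to 0.44 with 1 library left out. The SRSF1 change was 0.0441 with TMM factors, 0.0066 with the number of peaks and -0.43 to 0.49 with 1 library left out (0.13 without overexpression replicate 1). The difference between the hnRNPA1 and SRSF1 responses ran from -0.29 to 0.63. In each case the cause was not tested.

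With bins of 250 nt, 2 bins were called for hnRNPA1 and 5 for U2AF2. With 1 library left out, 0 to 2 bins were called for hnRNPA1, 2 to 5 for U2AF2 and 0 to 1 for SRSF1. Uncalled bins then ran from -3.48 to 2.26 (54676501), from -0.53 to 0.0819 (54677001) and from -0.14 to 0.14 (54678501) for hnRNPA1, from -0.60 to 1.05 (54676501) for U2AF2, and from -0.89 to 0.0106 (54676501) and from -0.52 to 0.37 (54678501) for SRSF1. Each hnRNPA1 refit leaves an arm of 1 library, assumed to vary like the other group. The bin from 54676501 turned from 2.26 to -3.48 between such refits, and neither value is read as a change. Without U2AF2 control replicate 3, the U2AF2 bins from 54677001 (3.64, limma adjusted p = 0.00116) and 54677501 (3.07, adjusted p = 0.000539) passed too. That library held the only control reads of both bins, 22 and 28. Without it they entered the test only through overexpression, so these passes are not read as changes.

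Counts of genes called moved more: 319 to 7699 for hnRNPA1 against 4791, 2249 to 6854 for U2AF2 against 5663, and 1 to 539 for SRSF1 against 466. Replicate numbers did not pair the libraries (correlation of deviations -0.018 to 0.051). With a replicate block the U2AF2 change was -4.51 (adjusted p = 0.00545), the hnRNPA1 change 0.20 (adjusted p = 0.378) and the SRSF1 change -0.06 (adjusted p = 0.951), and SRSF1 genes called dropped to 1. Depth limits the sites listed with overexpression alone for U2AF2, and losses in the shallower hnRNPA1 overexpression libraries.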
